A study of Rattus norvegicus with 16 samples.

Results

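The genes described here move chloride and bicarbonate across the colonic epithelium or make the bicarbonate that is moved: the apical anion exchangers Slc26a3 and Slc26a6, the bicarbonate cotransporter Slc4a4, the chloride channels Cftr and Ano1, the chloride loader Slc12a2, the carbonic anhydrases Car1, Car2 and Car4, and the anion channel Best2. They were chosen by name, and a probe was counted for a gene when the RefSeq transcript in its annotation maps to that rat symbol. Of the 10 genes, 9 were matched, by 13 of the 30367 probes that are not controls; those probes stand for 15159 gene symbols and for unnamed sequences. Best2 had no matched probe and was not analysed here. All 13 matched probes were well above background on all 16 arrays.

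RNA from the normal distal colon of male (ACIxF344)F1 rats was measured on single-colour Agilent arrays at 97 days of age. The 4 groups of 4 rats were wildtype untreated, wildtype DSS, Pirc untreated and Pirc DSS. Pirc rats carry 1 mutant copy of Apc (Pirc/+), a nonsense allele that gives them intestinal tumours, and the tissue came from mucosa away from tumours. DSS rats drank 4% dextran sodium sulfate from day 40 to day 47 and again from day 54 to day 61, so sampling came 36 days after the last dose and describes the tissue after recovery time, not acute colitis. Rats are named by number: 13, 17, 21 and 25 were wildtype untreated, 14, 18, 22 and 26 wildtype DSS, 11, 15, 19 and 23 Pirc untreated, and 12, 16, 20 and 24 Pirc DSS. Values for a group are given in that order of rats.

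In the distal colon, surface cells take up chloride through Slc26a3 in exchange for bicarbonate, and people who lack this exchanger have congenital chloride diarrhoea. Carbonic anhydrases turn carbon dioxide and water into bicarbonate and protons; Car1 and Car2 are cytosolic and Car4 is anchored on the outer face of the apical membrane. Secretion runs the other way: Slc12a2 brings chloride in across the basolateral membrane, Slc4a4 brings in sodium and bicarbonate, and chloride leaves through the cAMP-gated channel Cftr or through Ano1, a calcium-activated channel that is also a marker of the pacemaker cells of the gut wall.

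Levels are log2 signals relative to the 75th percentile of the same array, so 0 is the brightness of that percentile. Changes are differences of group means on the log2 scale from limma with adjusted p over all 30367 probes, and a probe passed at an adjusted p of 0.05 or less. Each gene is given by its brightest probe. The DSS effect over both genotypes is the mean of the DSS minus untreated differences in wildtype and in Pirc rats, and the Pirc effect is Pirc minus wildtype.

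Over both genotypes 1 of the 9 genes rose after DSS, Car4, and 2 fell, Slc26a3 and Ano1, where 10.2% of all probes rose and 6.99% fell. In Pirc rats 0 rose and 2 fell, Slc26a3 and Ano1, beside 8.14% of probes higher and 6.51% lower. In wildtype rats the limma fit called 0 of the 9 (2 had an unadjusted p under 0.05), while 3.84% of probes passed in either direction. The Pirc effect over both treatments called 1 gene, Slc26a3, which was lower (9.26% of probes higher, 8.27% lower). Among untreated rats the limma fit for genotype called 0 of the 9 genes, and 0 had an unadjusted p under 0.05. Of all probes 0.00% passed there, and 3103 had an unadjusted p under 0.05. Among DSS-treated rats Pirc had 0 genes higher and 2 lower, Slc26a3 and Ano1, beside 9.47% of probes higher and 8.76% lower. The difference between the DSS effects in the 2 genotypes passed for 0 of the 9 in limma (2 had an unadjusted p under 0.05) and for 0.0428% of all probes, which is 13. So the calls among the 9 genes came from 3 of them, and a DSS effect that differs between genotypes was called for none.

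The median change of the 9 genes was −0.22 for DSS over both genotypes against 0.06 over all probes, −0.14 against 0.04 for DSS in Pirc rats and −0.24 against 0.09 for DSS in wildtype rats. For the Pirc effect it was −0.07 against −0.06 over both treatments and −0.11 against −0.11 in DSS-treated rats. The DSS medians of the 9 genes thus lay below 0 and those of all probes above it; under quantile normalization the median of all probes for DSS over both genotypes was −0.06 as well.

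**Figure D1:**
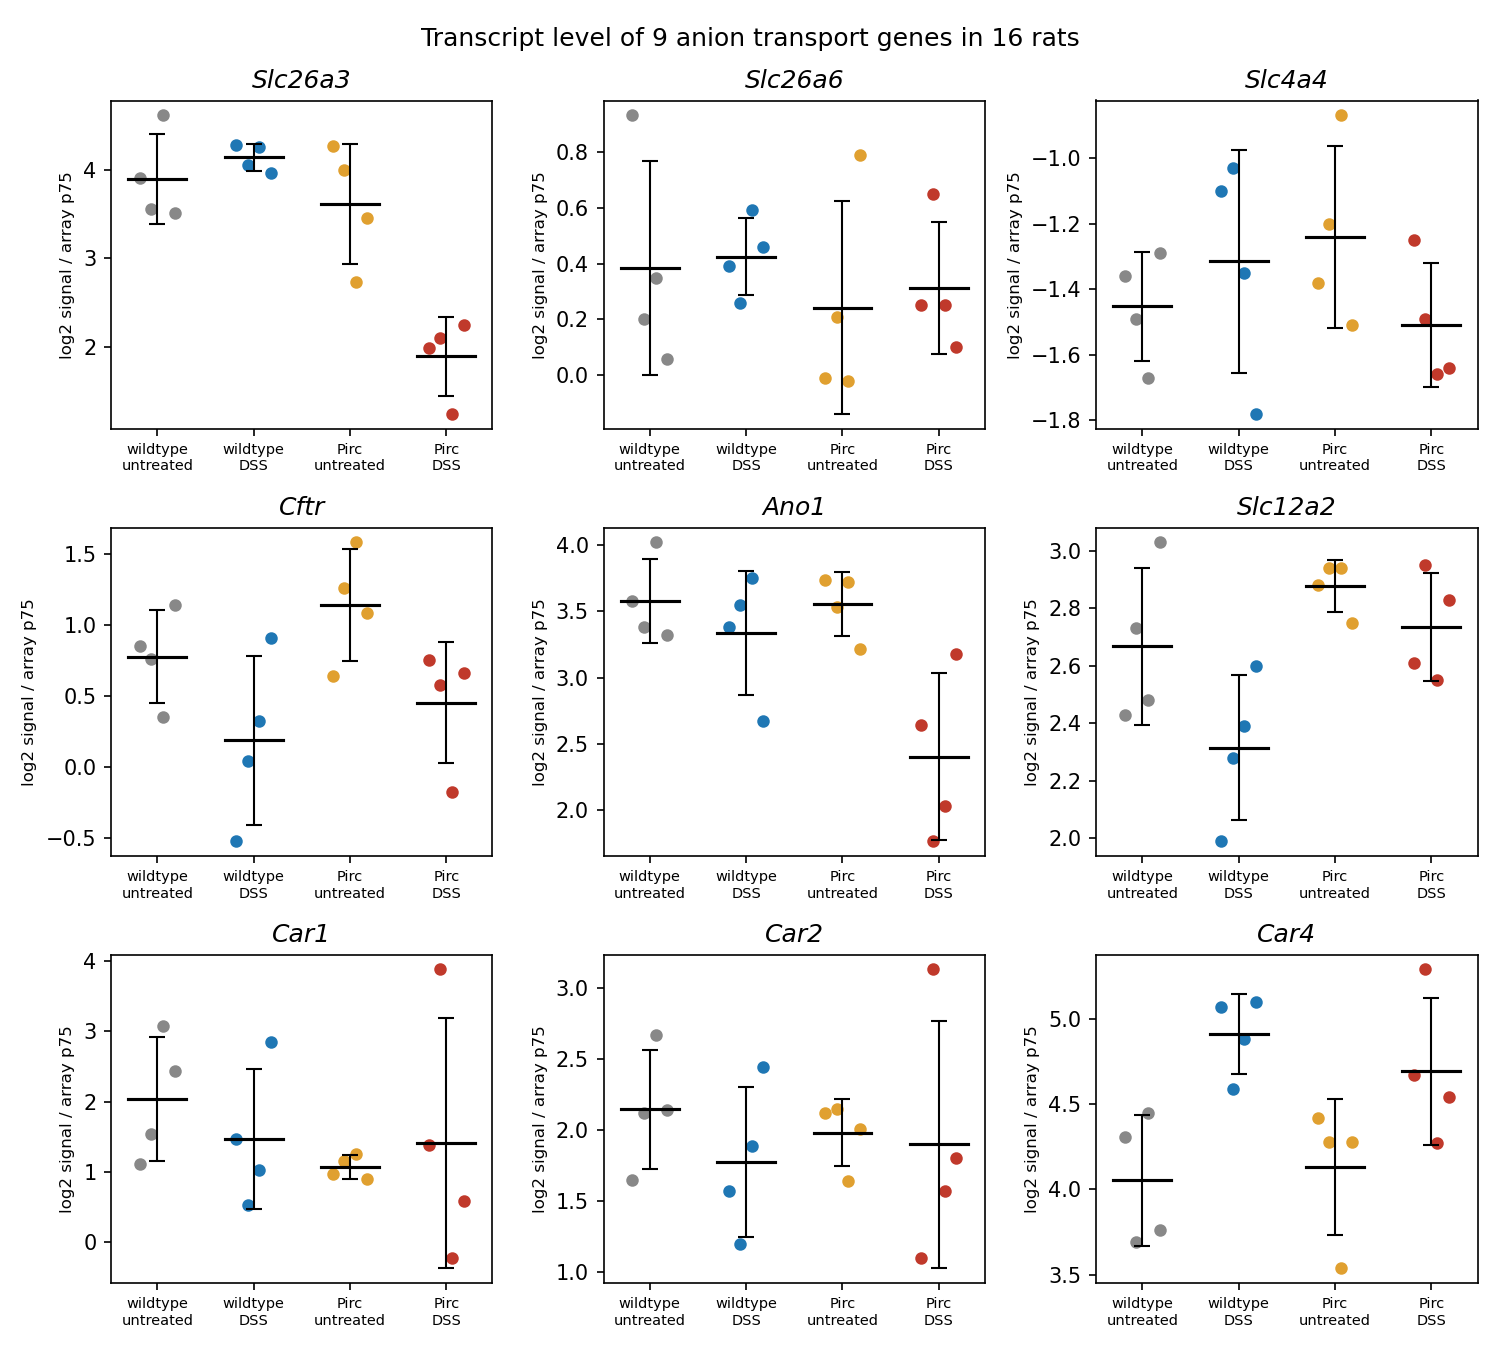
Log2 signal of the brightest probe of each of the 9 matched genes in each rat, relative to the 75th percentile of the same array; each point is 1 rat, with the mean and SD of its group of 4. The 4 Pirc DSS rats of Slc26a3 lie between 1.24 and 2.25, below all 12 other rats.

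Slc26a3, the main chloride-bicarbonate exchanger of the colonic surface, had log2 levels of 3.91, 3.56, 4.62 and 3.52 in wildtype untreated rats and 4.29, 4.06, 4.26 and 3.97 in wildtype DSS rats. Pirc untreated rats had 4.27, 4.00, 2.73 and 3.46, and Pirc DSS rats 1.98, 2.10, 1.24 and 2.25. All 4 Pirc DSS rats lay below every rat of the other groups, whose values overlapped one another; the nearest was untreated Pirc rat 19 at 2.73. The order of the group means was wildtype DSS (4.14 ± 0.16, SD, n = 4), wildtype untreated (3.90 ± 0.51), Pirc untreated (3.62 ± 0.68) and Pirc DSS (1.89 ± 0.45), and only the last step was larger than the spread within the groups.

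In Pirc rats Slc26a3 fell by 1.72 (SE 0.32, 95% CI −2.42 to −1.03, limma adjusted p = 0.00268), a level 3.3-fold lower after DSS. In wildtype rats the difference was 0.24 (SE 0.32, adjusted p = 0.804 by limma). The difference between these effects was −1.97 (95% CI −2.95 to −0.98), with a limma adjusted p = 0.149, so it did not pass among all probes. Between genotypes after DSS, Slc26a3 was lower in Pirc rats (−2.25, 95% CI −2.94 to −1.56, limma adjusted p = 0.000932), 4.76-fold, and without DSS the genotypes differed by −0.29 (limma adjusted p = 0.823; 0.40 on slide 1 and −0.98 on slide 2). The Pirc effect over both treatments was −1.27 (limma adjusted p = 0.00306). These values place the low level in a single group, the Pirc rats given DSS.

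Each slide held 2 rats of every group, and the fall of Slc26a3 in Pirc rats was −2.10 on slide 1 (limma adjusted p = 0.00788) and −1.35 on slide 2 (limma adjusted p = 0.315), where untreated rat 19 is. With the slide as a block it was −1.72 (limma adjusted p = 0.00293), and it passed whichever rat was left out, from −2.02 without rat 19 to −1.50 without rat 11. The Pirc effect after DSS was −2.13 on slide 1 and −2.37 on slide 2, with limma adjusted p of 0.0229 and 0.121. The DSS effect over both genotypes, −0.74 (limma adjusted p = 0.0372), averages a fall and no fall: it did not pass without rat 11, 12, 13, 14, 15, 18, 20, 21, 22 or 26, 10 of the 16 sets with 1 rat left out, whose values ran from −0.89 to −0.62 and adjusted p from 0.00881 to 0.0807.

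Slc26a6, the second apical exchanger, had levels from −0.02 to 0.93 over the 16 rats, and the 4 groups overlapped. Its DSS effect over both genotypes was 0.06 (SE 0.15, limma adjusted p = 0.854), and its lowest adjusted p over the 7 comparisons was 0.591. Slc4a4 spanned −1.78 to −0.87 with overlapping groups. The DSS effect over both genotypes was −0.06 (SE 0.13, limma adjusted p = 0.804), and no comparison came below 0.404. Both of these effects were smaller than their standard errors. A dimmer Slc4a4 probe differed by −0.66 after DSS in Pirc rats and did not pass either (limma adjusted p = 0.158).

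Ano1, the calcium-activated chloride channel, had levels of 3.58, 3.38, 4.02 and 3.32 in wildtype untreated rats and 3.38, 3.55, 3.75 and 2.67 in wildtype DSS rats. In Pirc untreated rats they were 3.74, 3.53, 3.72 and 3.22, and in Pirc DSS rats 2.64, 1.77, 2.03 and 3.18. All 4 Pirc DSS rats lay below the 4 untreated Pirc rats, though rat 24 at 3.18 was only just below rat 23 at 3.22, and rat 24 also overlapped wildtype DSS rats.

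Ano1 fell by 1.14 after DSS in Pirc rats (SE 0.30, 95% CI −1.78 to −0.51, limma adjusted p = 0.0181), 2.21-fold, and its second, dimmer probe fell by 1.15 (limma adjusted p = 0.0303). The call was close to the threshold: without rat 11, 19, 16 or 20 the adjusted p was 0.0526, 0.0514, 0.0508 and 0.0643, and over all 16 sets it ran from 0.00376 to 0.0643. Slide 1 alone gave −1.43 (limma adjusted p = 0.0468) and slide 2 alone −0.86 (limma adjusted p = 0.575). In wildtype rats the difference was −0.24 (limma adjusted p = 0.783), and the difference between the DSS effects, −0.90 (SE 0.42), did not pass (limma adjusted p = 0.466). Over both genotypes Ano1 fell by 0.69 (limma adjusted p = 0.0331), a call lost in 9 of 16 sets, without rat 11, 13, 14, 15, 16, 19, 20, 21 or 26 (−0.82 to −0.58, adjusted p 0.00682 to 0.0728), and that the second probe did not share (−0.55, limma adjusted p = 0.134).

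After DSS, Ano1 was lower in Pirc than in wildtype rats on the first probe (−0.93, limma adjusted p = 0.042) and on the second (−1.19, limma adjusted p = 0.0229). This call held in 5 of the 16 sets with a rat left out and was lost without rat 11, 12, 13, 14, 15, 16, 17, 18, 19, 20 or 22; the values ran from −1.19 to −0.72 and the adjusted p from 0.00964 to 0.128. It was also lost in 6 of 13 other settings, over which the values ran from −1.26 to −0.60 (limma adjusted p up to 0.572). Among the 6 was scaling to the mean of the colonic epithelium genes, a choice made after seeing the data. There the difference was −0.61 (limma adjusted p = 0.167). The Pirc effect over both treatments was −0.48 and did not pass (limma adjusted p = 0.137, and 0.0374 without rat 24). Ano1 thus shared with Slc26a3 the group in which it was low, with a smaller change and less margin.

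Cftr had levels of 0.85, 0.76, 0.35 and 1.14 in wildtype untreated rats, −0.52, 0.04, 0.32 and 0.91 in wildtype DSS rats, 0.64, 1.26, 1.58 and 1.08 in Pirc untreated rats, and 0.75, 0.58, −0.18 and 0.66 in Pirc DSS rats. Treated and untreated rats overlapped in both genotypes. The DSS effect over both genotypes was −0.64 (SE 0.21, 95% CI −1.09 to −0.19), and its limma adjusted p = 0.0503 missed the threshold by little. It passed under quantile normalization (adjusted p = 0.042 by limma), normexp (0.0387), the filter on dim probes (0.0361), the array row as a block (0.0398) and epithelium scaling (0.0468, chosen after seeing the data), and without rat 26 (0.0141), 11 (0.0335) or 21 (0.0425). These are 5 of 12 settings and 3 of 16 sets with a rat left out; in the rest it did not pass (adjusted p up to 0.451 and 0.104), nor did the second Cftr probe (−0.42, limma adjusted p = 0.245). Within Pirc rats the difference was −0.69 (limma adjusted p = 0.149) and within wildtype rats −0.59 (limma adjusted p = 0.347), of like size in both. The Pirc effect over both treatments was 0.32 (limma adjusted p = 0.329).

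Slc12a2, the sodium-potassium-chloride cotransporter that loads the cell with chloride, was the steadiest of the 9 genes, with a pooled SD within groups of 0.22. Its levels were 2.43, 2.73, 2.48 and 3.03 in wildtype untreated rats, 1.99, 2.28, 2.39 and 2.60 in wildtype DSS rats, 2.88, 2.94, 2.94 and 2.75 in Pirc untreated rats, and 2.61, 2.95, 2.55 and 2.83 in Pirc DSS rats. Wildtype DSS rats were lowest on average, and all lay below every untreated Pirc rat. The other pairs of groups overlapped. The Pirc effect over both treatments was 0.31 (SE 0.11, limma adjusted p = 0.0723, and 0.0311 without rat 25 and 0.0402 without rat 26) on the brightest probe and 0.42 (limma adjusted p = 0.0247) on the second, so the probes share a direction and differ in the call. Scaled to the colonic epithelium genes, a choice made after seeing the data, it was 0.56 (limma adjusted p = 0.00647). That scaling shifted all probes: the median Pirc effect went from −0.06 to 0.18, and 90.0% of called probes were higher in place of 52.8%. So the larger value is not particular to Slc12a2. The Pirc effect after DSS was 0.42 (limma adjusted p = 0.0889, 0.0473 without rat 26, and 0.74 with an adjusted p of 0.00992 under epithelium scaling) and the DSS effect over both genotypes −0.25 (limma adjusted p = 0.172). Unlike Slc26a3 and Ano1, neither Cftr nor Slc12a2 was called after DSS in Pirc rats.

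Car4, the carbonic anhydrase of the outer apical membrane, had levels of 4.31, 3.69, 4.45 and 3.76 in wildtype untreated rats and 5.07, 4.59, 4.88 and 5.10 in wildtype DSS rats. The Pirc rats had 4.42, 4.28, 3.54 and 4.28 without DSS and 4.67, 5.29, 4.27 and 4.54 after it. In wildtype rats every treated value lay above every untreated one, and in Pirc rats the groups overlapped through rat 20 at 4.27. Car4 rose by 0.71 over both genotypes (SE 0.18, 95% CI 0.33 to 1.09, limma adjusted p = 0.0125), 1.63-fold, and passed whichever rat was left out (0.61 to 0.78, highest adjusted p 0.0291). The slides alone gave 0.73 and 0.69, with limma adjusted p of 0.103 and 0.291 from fewer rats each. Within Pirc rats the difference was 0.56 (limma adjusted p = 0.163) and within wildtype rats 0.85 (limma adjusted p = 0.079, and 0.0473 without Pirc DSS rat 16). The effects in the genotypes differed by −0.29 (limma adjusted p = 0.83). In Pirc rats, then, Slc26a3 fell while Car4 was higher without passing.

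Car1 varied more between rats of a group than any other of the 9 genes, with a pooled SD of 1.11, where the median over all probes well above background on all arrays was 0.25. Its levels in Pirc DSS rats were 1.39, 3.88, −0.22 and 0.59, and in Pirc untreated rats 0.97, 1.15, 1.26 and 0.90. Wildtype untreated rats had 1.11, 1.54, 3.07 and 2.44, and wildtype DSS rats 1.47, 0.53, 1.03 and 2.85. The untreated Pirc rats were the most alike, and the highest and the lowest of all 16 values were both in the Pirc DSS group. The DSS effect over both genotypes was −0.12 (SE 0.51, limma adjusted p = 0.916), and no comparison came below an adjusted p of 0.514. For Car2 the range over the rats was 1.10 to 3.13, the DSS effect over both genotypes −0.22 (SE 0.26, limma adjusted p = 0.664), and no comparison came below 0.664. Rat 16 had the highest level of Car1, Car2 and Car4 of all 16 rats; it also had the lowest 75th percentile of signal, 875.4, and the highest means in the Pirc DSS group of the surface colonocyte genes, 1.08 above untreated wildtype rats, of the red cell genes, 1.28 (the other 3 had −1.01, −0.23 and 0.58), and of the smooth muscle genes, 1.18. The part of these values in its carbonic anhydrase levels was not tested.

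Whether these genes moved together among rats of the same group was measured on deviations from the group means over the 16 rats, for 36 pairs. The strongest were Car1 with Car2 (Pearson r = 0.80, permutation p = 0.014, adjusted 0.17; Spearman rho = 0.64, permutation p = 0.029, adjusted 0.21) and Slc26a3 with Car4 (r = 0.75, permutation p = 0.0042, adjusted 0.12; rho = 0.72, permutation p = 0.008, adjusted 0.14). Cftr with Slc12a2 followed (r = 0.71, permutation p = 0.0069, adjusted 0.12; rho = 0.71, permutation p = 0.0048, adjusted 0.14). Of the 36 pairs 0 passed after adjustment, and the median r was 0.02. Without the 2 farthest rats r was 0.65, 0.52 and 0.54 for the pairs in that order, so all 3 weakened. Without rat 16 alone r was 0.57, 0.81 and 0.72, so only Car1 with Car2 weakened. By slide, Car1 with Car2 gave 0.98 and 0.74, Slc26a3 with Car4 0.84 and 0.83, and Cftr with Slc12a2 0.26 and 0.94, the last resting on slide 2.

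Outside the 9 genes, those most like each of them over the 16 rats were found by Pearson correlation of levels, with the correlation of deviations from group means second. For Slc26a3 they were Trak1 (0.96, 0.78) and Cyp3a9 (0.95, 0.82), for Ano1 Arb2a (0.95, 0.93) and Nr4a2 (0.95, 0.87), and for Car4 Sgk2 (0.95, 0.92) and Cap1 (0.90, 0.83). Car1 was nearest to Uvssa (0.90, 0.89) and Camkk2 (0.89, 0.88), Car2 to Mgat3 among those given (0.82, 0.83), and Cftr to Mccc1 (0.93, 0.88) and Prkra (0.92, 0.89). Slc26a6 was nearest to Rhbdl1 (0.90, 0.90) and Fam32a (0.87, 0.92), Slc12a2 to Vegfb (0.86, 0.69) and Creld1 (0.86, 0.70), and Slc4a4 to Slc22a15 (0.80, 0.88) and Btd (0.79, 0.79). These were picked as the highest over all probes and carry no test.

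The tissue label was checked with marker genes. Of 12 genes listed for colonic epithelium 11 were matched, all well above background on every array, and their mean level relative to untreated wildtype rats was 0.11 ± 0.08 (SD) in wildtype DSS, −0.16 ± 0.08 in Pirc untreated and −0.20 ± 0.13 in Pirc DSS rats. In Pirc rats 1 of the 11 fell after DSS, Epcam (−0.42, limma adjusted p = 0.0215), beside 6.51% of all probes. After DSS 6 of the 11 were lower in Pirc than in wildtype rats, beside 8.76% of all probes. Among 8 surface colonocyte genes, Mep1a fell by 1.45 in Pirc rats (limma adjusted p = 0.00106) and Ceacam1 rose (limma adjusted p = 0.0171), beside 6.51% of all probes lower and 8.14% higher. After DSS 0 of the 8 were higher and 2 lower in Pirc than in wildtype rats, Mep1a (−2.03, limma adjusted p = 0.000311) and Cdhr5 (−1.33, limma adjusted p = 0.0026), with a median of −0.89. Of all probes 9.47% were higher and 8.76% lower in that comparison. The list mean was 0.28 in wildtype DSS, −0.42 in Pirc untreated and −0.33 in Pirc DSS rats, the last from −0.95, 1.08, −1.13 and −0.34 by rat, so rat 16 lay apart from the other 3. Bulk tissue was measured, so fewer cells of a type and less RNA per cell cannot be told apart for any gene here.

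Genes of other cell types moved with the DSS groups. The list for stratified and urothelial epithelium averaged 2.02 above untreated wildtype rats in wildtype DSS, 0.20 in Pirc untreated and 4.02 in Pirc DSS rats. By rat it was 3.13, 3.81, 4.75 and 4.38 in Pirc DSS and 1.63, 2.33, 4.05 and 0.05 in wildtype DSS. Of its 7 matched genes 6 rose in Pirc rats, beside 8.14% of all probes. Its brightest in the Pirc DSS group, Krt13, had a mean of 4.00 there (limma adjusted p = 0.000925 for DSS in Pirc rats). Only 10 of the 16 arrays measured Krt13 above background, so its change is not a measured size. In wildtype rats 1 of the 7 rose, Krt13 (limma adjusted p = 0.0335), and 4 had an unadjusted p under 0.05 in limma. Of all probes 3.84% passed there in either direction. Fibroblast genes averaged 2.05, 0.25 and 2.68 in wildtype DSS, Pirc untreated and Pirc DSS rats, and endothelial genes 0.78, −0.18 and 0.97; leukocyte genes averaged −0.15 in Pirc untreated and 1.79 in Pirc DSS rats, and their median change after DSS was 1.44 in wildtype and 1.87 in Pirc rats. In wildtype rats 4 of 6 fibroblast, 0 of 5 endothelial and 4 of 7 leukocyte genes rose in limma (6, 3 and 5 had an unadjusted p under 0.05). In Pirc rats 6 of 6 fibroblast, 3 of 5 endothelial and 5 of 7 leukocyte genes rose, beside 8.14% of all probes. Goblet cell genes averaged −0.22, −0.30 and −0.96, and 1 of 7 fell in Pirc rats, Clca1, beside 6.51% of all probes. Their part in the results for Slc26a3, Ano1, Car4, Car13, Car5b and Slc4a9 was not tested.

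Because Ano1 also marks interstitial cells of Cajal, their genes are given beside it. Of 5 listed, 4 were matched, and 1, Kit, was well above background on every array, at group means of −4.36, −4.28, −3.85 and −3.33 in wildtype untreated, wildtype DSS, Pirc untreated and Pirc DSS rats. The list mean was 1.18, 0.56 and 1.71 in the last 3 of those groups, and after DSS in Pirc rats 1 passed, Gja1, which rose by 3.73 (limma adjusted p = 0.000516; well above background on 15 of the 16 arrays). Kit was higher in Pirc than in wildtype rats after DSS (0.95, limma adjusted p = 0.0221) and over both treatments (0.73, limma adjusted p = 0.0154), and Etv1, well above background on 8 arrays, passed for DSS over both genotypes (limma adjusted p = 0.0167). The list mean was thus highest in Pirc DSS rats, where Ano1 was lowest. That mean includes genes not well above background on every array and the large rise of Gja1, so it is no measure of the number of these cells. Red cell genes, which bear on Car1 and Car2, averaged 0.90, −1.14 and 0.15 in wildtype DSS, Pirc untreated and Pirc DSS rats. Their baseline, the untreated wildtype rats, held −0.53, −0.32, −0.37 and 1.22, with rat 25 apart. In Pirc rats 0 of 7 passed in limma after DSS (4 had an unadjusted p under 0.05), beside 8.14% of all probes higher and 6.51% lower. Smooth muscle genes averaged 0.50, −0.82 and −0.02 in wildtype DSS, Pirc untreated and Pirc DSS rats. Their untreated wildtype baseline held −0.72, −0.71, −0.36 and 1.79, with rat 25 apart, and the wildtype DSS mean rested on rat 26 at 2.34. The genes moved in both directions. In Pirc rats 0 of 8 rose and 1 fell after DSS, Des (−1.87, limma adjusted p = 0.00964, and −1.49 over both genotypes, limma adjusted p = 0.00349), beside 8.14% and 6.51% of all probes. Tagln, well above background on 13 arrays, rose over both genotypes (limma adjusted p = 0.0441). Wildtype DSS, Pirc untreated and Pirc DSS rats averaged, for enteric neuron and glia genes, 0.34, 0.10 and 0.47, and for small intestine genes 0.47, 0.06 and 0.07. In Pirc rats Uchl1 of the former rose (limma adjusted p = 0.00242) and Fabp6 of the latter fell (limma adjusted p = 0.0045). What these lists contributed to Ano1, Car1 and Car2 was not tested.

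The wider pathway was read from a list of 83 other genes of anion, chloride and bicarbonate transport, carbonic anhydrases and the drive for secretion, 71 of them matched. After DSS over both genotypes 8 rose and 9 fell (10.2% and 6.99% of all probes), in Pirc rats 8 rose and 12 fell (8.14% and 6.51%), and in wildtype rats 3 rose and 2 fell (3.84% in either direction). The 5 in wildtype rats were Slc4a11, Clca4 and Car5b, which rose, and Car11 and Oxsr1, which fell. Over both treatments 3 were higher and 14 lower in Pirc rats (9.26% and 8.27% of all probes); the 3, named after their values were seen, were Clca4, Car8 and Kcne3. Among DSS-treated rats 6 were higher and 14 lower in Pirc rats (9.47% and 8.76%), and among untreated rats limma called 0, though 12 had an unadjusted p under 0.05. For the difference between the DSS effects the limma count was 0 as well, and 13 had an unadjusted p under 0.05. The median over the 71 was −0.12 for DSS in Pirc rats, against 0.04 over all probes, and −0.21 for the Pirc effect after DSS, against −0.11.

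**Figure D2:**
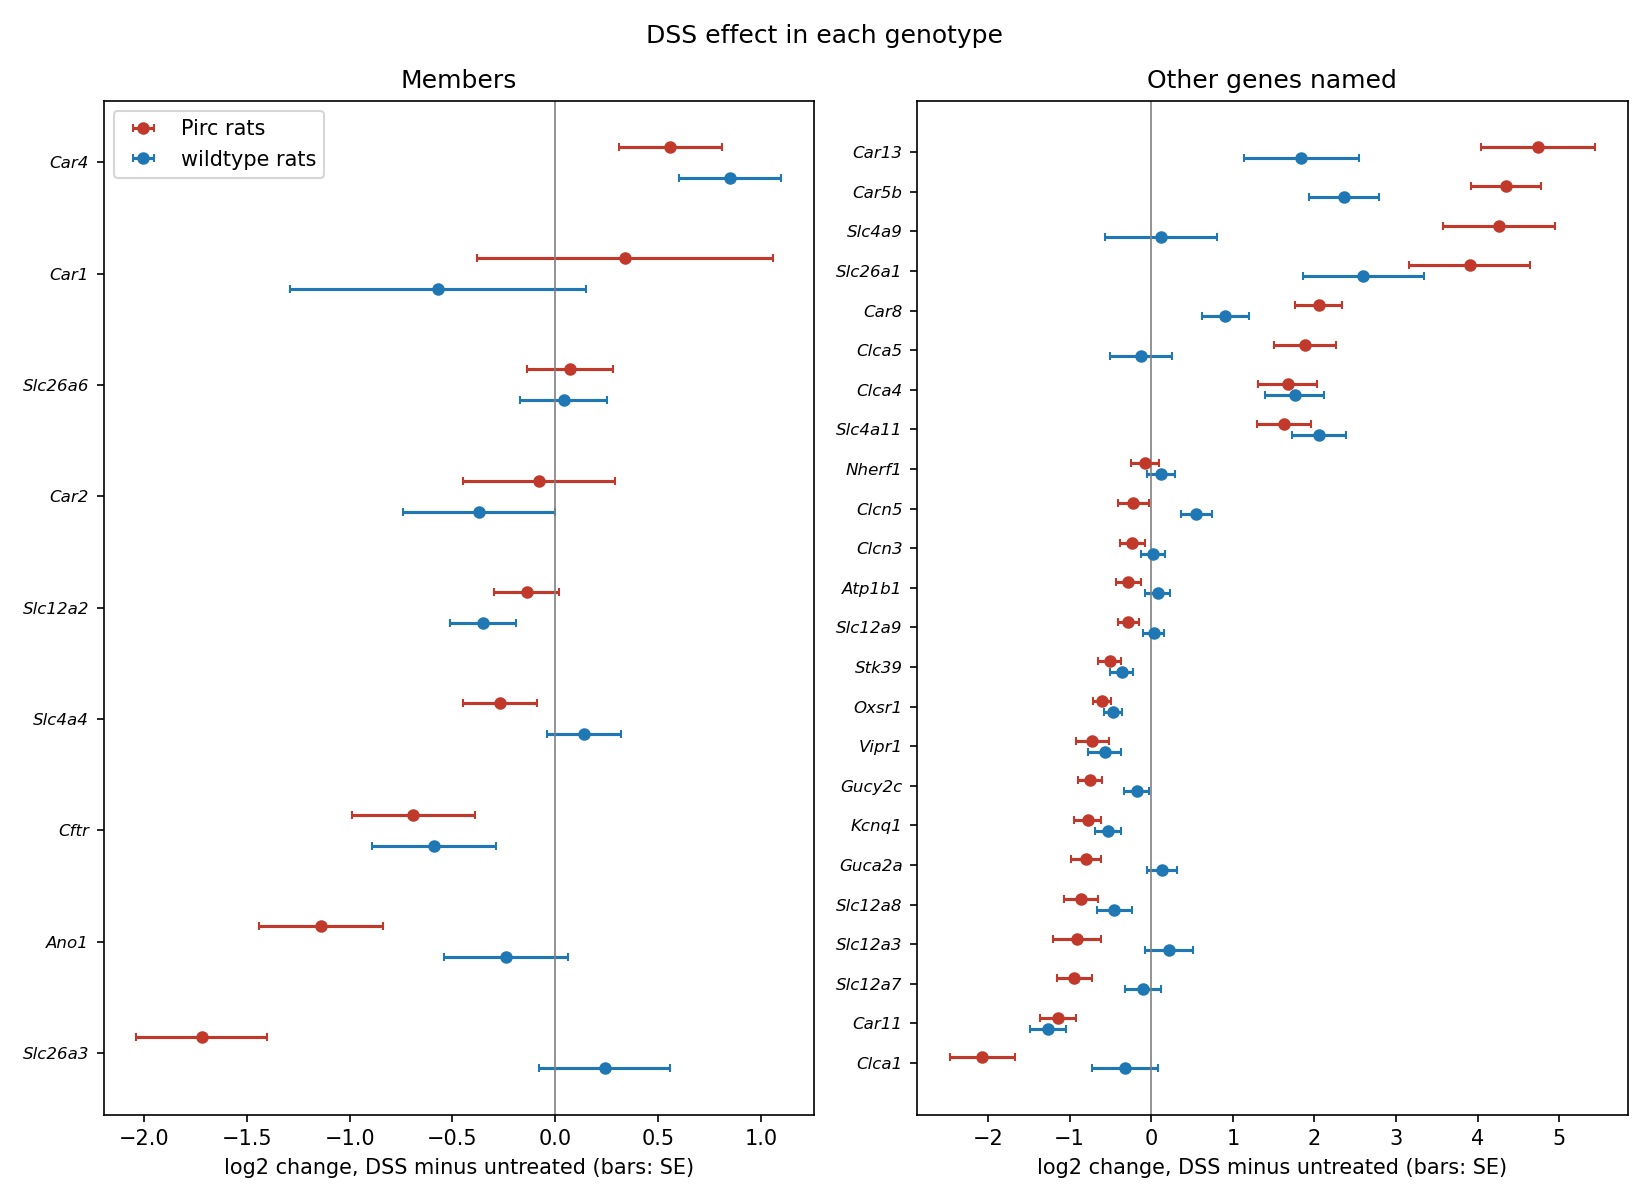
Change after DSS (log2, DSS minus untreated) with its SE as bars in wildtype and in Pirc rats, for the 9 matched genes and for named genes of the wider pathway. Slc26a3 at −1.72 and Ano1 at −1.14 lie lowest of the 9 in Pirc rats, and the sizes of Car13, Slc26a1, Car5b, Slc4a9 and Clca5, not well above background in some or all untreated rats, are not measured ones.

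The cation-chloride cotransporters are relatives of Slc12a2 that mostly carry chloride with potassium or sodium. Of the 7 matched, 0 rose and 4 fell after DSS in Pirc rats, beside 8.14% and 6.51% of all probes. Slc12a7, a potassium-chloride cotransporter, had levels of 0.87, 0.58, 0.55 and 0.30 in Pirc untreated rats and −0.75, −0.18, −0.66 and 0.13 in Pirc DSS rats. Wildtype rats had 1.29, 1.47, 1.49 and 1.05 without DSS and from 0.88 to 1.57 after it. All Pirc DSS rats lay below all others. Slc12a7 fell by 0.94 in Pirc rats (limma adjusted p = 0.00897) and was lower in Pirc than in wildtype rats after DSS (−1.59, limma adjusted p = 0.000679); a second probe passed only the latter. Slc12a8 fell by 0.86 in Pirc rats (limma adjusted p = 0.0119) and by 0.66 over both genotypes (limma adjusted p = 0.00596).

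Slc12a3 was weaker. It fell by 0.91 in Pirc rats (limma adjusted p = 0.0474), passing only without rat 16, 23 or 24 when a rat was left out (−1.10 to −0.59, adjusted p 0.0201 to 0.13). After DSS it was lower in Pirc than in wildtype rats (−1.19, limma adjusted p = 0.0121), also in every set with a rat left out. Its second probe passed neither comparison. Slc12a9 was lower in that comparison as well (−0.75, limma adjusted p = 0.00226) and over both treatments (−0.59, limma adjusted p = 0.00146), with −0.28 for DSS in Pirc rats (limma adjusted p = 0.164). Epithelium scaling left it at −0.43 after DSS (limma adjusted p = 0.022).

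Of the 12 matched carbonic anhydrases outside the members, 3 rose and 1 fell after DSS in Pirc rats, beside 8.14% and 6.51% of all probes. Car13, a cytosolic enzyme, was not well above background in any untreated rat and was so in all 4 Pirc DSS rats, at −5.50, −4.50, −3.49 and −3.84. Against the lowest signal well above background on each array, its level was at least 7.04-fold higher after DSS in Pirc rats (limma adjusted p = 0.000532). That fold depends on the processing: over 13 other settings the fitted log2 change ran from 1.38 to 5.49, and it did not pass in 1 (limma adjusted p up to 0.0819). In wildtype rats 1 of 4 treated rats, number 22, measured it, the rat with the highest mean of the stratified and urothelial list in its group, 4.05. In Pirc DSS rats the order by rat of that list, highest in rat 20, then 24, 16 and 12, was also that of Car13 and of Car5b below. The other pathway genes that rose in Pirc rats, Slc4a9, Car8, Slc26a1, Clca5, Clca4 and Slc4a11, had other orders. In wildtype DSS rats Car5b was highest in rat 14. A link of either gene to that epithelium was not tested. In the RefSeq order of genes Car2, Car3, Car1 and Car13 lie side by side, and of these Car13 alone passed after DSS in Pirc rats; Car3 was well above background on 1 array.

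Car5b, a mitochondrial enzyme, had levels of −4.10, −3.08, −1.89 and −2.29 in Pirc DSS rats and −7.22, −6.84, −7.74 and −6.97 in Pirc untreated rats, where 1 of 4 measured it above background. In untreated wildtype rats 3 of 4 measured it. It rose by a fitted 4.35 in Pirc rats (limma adjusted p = 6.06e-05) and 3.36 over both genotypes (limma adjusted p = 1.36e-05), and the Pirc groups did not overlap; both sizes include untreated signals not well above background and are not measured sizes. Car8 rose by 2.05 in Pirc rats (limma adjusted p = 0.000414) and was higher than in wildtype rats after DSS by 2.06 (limma adjusted p = 0.00083). Car11 fell in both genotypes, from −2.81, −2.65, −2.60 and −2.22 to −4.15, −4.28, −3.51 and −3.42 in wildtype rats, and from −2.41, −2.84, −2.85 and −2.31 to −4.05, −3.90, −3.50 and −3.51 in Pirc rats. Its change over both genotypes was −1.21 (SE 0.16, limma adjusted p = 0.000131), with no overlap in either genotype. Car8 and Car11 are related to the enzymes and lack their activity.

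In the family of Slc26a3, 6 of 9 listed genes were matched. After DSS in Pirc rats 0 fell and 1 rose (6.51% and 8.14% of all probes), the sulfate carrier Slc26a1. It was well above background in all 4 Pirc DSS rats, at −4.90, −3.72, −4.36 and −5.28, in 1 of 4 untreated Pirc rats, and in 3 of 4 wildtype DSS rats. The fitted change in Pirc rats, 3.90 (SE 0.74, limma adjusted p = 0.00285), rests on untreated signals of which 3 of 4 were not well above background, so it is not a measured size. In wildtype rats its level was at least 2.17-fold higher after DSS as a group mean, with a limma adjusted p = 0.0685 that did not pass. In the family of Slc4a4, 9 genes were matched, and 2 rose and 0 fell after DSS in Pirc rats (8.14% and 6.51% of all probes). Slc4a9 had levels of −3.32, −1.90, −1.29 and −1.96 in Pirc DSS rats and −5.45, −6.42, −7.69 and −5.96 in Pirc untreated rats, where 3 of 4 measured it, a rise by a fitted 4.26 without overlap (limma adjusted p = 0.00096) that includes the signal of rat 19, not well above background, and is not a measured size; normexp gave 2.55. Slc4a11 rose by 1.84 over both genotypes (limma adjusted p = 9.94e-05).

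Among chloride channels and their regulators 19 of 26 were matched. After DSS in Pirc rats 2 rose and 1 fell, beside 8.14% and 6.51% of all probes. Clca4 had levels of 3.96, 3.89, 3.86 and 3.98 in Pirc untreated rats and 5.46, 6.25, 5.58 and 5.06 in Pirc DSS rats, and rose by 1.67 (limma adjusted p = 0.00676); over both genotypes it rose by 1.71 (limma adjusted p = 0.000344). Clca5, measured in 3 of 4 untreated Pirc rats, rose by a fitted 1.88 in Pirc rats (limma adjusted p = 0.0042), likewise not a measured size, but its second probe, well above background on 1 array, did not pass. Clca1, a secreted goblet cell protein that also stands in the goblet cell list, went from 6.19, 5.59, 5.80 and 4.97 in Pirc untreated rats to 3.38, 3.59, 2.60 and 4.72 in Pirc DSS rats, without overlap, and fell by 2.07 (limma adjusted p = 0.00325). After DSS, Clcn5 (−1.08, limma adjusted p = 0.00247) and Clcn3 (−0.74, limma adjusted p = 0.00469) were lower in Pirc than in wildtype rats. In that comparison 2 of the 19 were higher and 5 lower, beside 9.47% and 8.76% of all probes. The others lower were Clca1, Clcn7 and Ano10. Clcn5 and Clcn3 were also lower over both treatments (−0.69 and −0.61, limma adjusted p of 0.00387 and 0.0022), and neither passed for DSS in Pirc rats (limma adjusted p of 0.53 and 0.355). Under epithelium scaling the difference after DSS was −0.76 for Clcn5 (limma adjusted p = 0.00677) and −0.42 for Clcn3, which then did not pass (limma adjusted p = 0.0758).

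Of 18 genes that drive or regulate secretion, 0 rose and 6 fell after DSS in Pirc rats, beside 8.14% and 6.51% of all probes. Kcnq1, the basolateral potassium channel that keeps the driving force for chloride exit, had levels of 3.39, 3.36, 3.46 and 3.05 in Pirc untreated rats and 2.69, 2.49, 2.34 and 2.63 in Pirc DSS rats, and fell by 0.78 (limma adjusted p = 0.00426). Gucy2c, the receptor for guanylin, fell by 0.75 (limma adjusted p = 0.00394), and Guca2a, which encodes guanylin, by 0.80 (limma adjusted p = 0.00779). Guca2a was also lower in Pirc than in wildtype rats after DSS (−1.42, limma adjusted p = 0.000432). Gucy2c and Guca2a thus fell in the same group, while Guca2b of the same list was −0.39 for DSS in Pirc rats and did not pass (limma adjusted p = 0.357).

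Vipr1, the receptor for vasoactive intestinal peptide, fell by 0.72 in Pirc rats (limma adjusted p = 0.026), lost without rat 11, 12, 15 or 20 (−0.78 to −0.67, adjusted p 0.00677 to 0.0729), and by 0.65 over both genotypes (limma adjusted p = 0.0053). The kinases that switch on Slc12a2, Stk39 and Oxsr1, fell over both genotypes by 0.44 (limma adjusted p = 0.00611) and 0.53 (limma adjusted p = 0.000297). The second probe of Oxsr1 gave 0.00 (limma adjusted p = 0.99), so that call belongs to 1 probe. Nherf1, a scaffold that binds Cftr and Slc26a3, was lower in Pirc than in wildtype rats after DSS (−1.02, limma adjusted p = 0.00226) and over both treatments (−0.92, limma adjusted p = 0.000726). Without DSS the genotypes differed by −0.82 (limma adjusted p = 0.177), and DSS in Pirc rats gave −0.08 (limma adjusted p = 0.863). Atp1b1, a subunit of the sodium pump, was lower in Pirc rats after DSS (−0.66, limma adjusted p = 0.00814) and over both treatments (−0.48, limma adjusted p = 0.00732), with −0.28 for DSS in Pirc rats (limma adjusted p = 0.244). The Atp1b1 difference after DSS did not pass in 4 of 13 other settings, among them epithelium scaling (−0.35, limma adjusted p = 0.0577), and ran from −0.90 to −0.35. For Nherf1 it ran from −1.05 to −0.70 and did not pass in 2 of the 13 (limma adjusted p up to 0.167).

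Promoters are shown for the pair of genes that fell in Pirc rats, to let their sequences be compared. The promoter table used, on build GRCr8, holds 7 of the 10 genes. The 250 bases before the start of Slc26a3, chr6:53751165-53751414 on the plus strand, hold 40.4% G and C, and those of Ano1, chr1:209329339-209329588 on the minus strand, 74.8%, where the median of 33469 promoters was 51.2%. The motifs searched on both strands were the TATA box TATAAA and its variant TATATAA, the GC box GGGCGG, the CDX motif TTTATG, the CCAAT box, and the HNF1 half-site GTTAAT; capitals mark those found, and none of them overlap.
Slc26a3: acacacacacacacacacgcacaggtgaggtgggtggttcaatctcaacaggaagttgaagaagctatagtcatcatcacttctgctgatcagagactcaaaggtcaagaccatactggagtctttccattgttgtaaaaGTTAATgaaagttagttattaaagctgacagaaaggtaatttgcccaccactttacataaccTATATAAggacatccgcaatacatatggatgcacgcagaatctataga
Ano1: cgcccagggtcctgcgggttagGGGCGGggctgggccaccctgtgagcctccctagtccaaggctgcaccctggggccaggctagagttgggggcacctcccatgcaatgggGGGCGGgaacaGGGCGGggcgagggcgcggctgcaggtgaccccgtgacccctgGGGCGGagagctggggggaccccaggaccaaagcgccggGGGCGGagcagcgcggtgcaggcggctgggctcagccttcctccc
Slc26a3 holds TATATAA, found in 3.42% of all promoters, and GTTAAT, found in 6.45%. Ano1 holds GGGCGG, found in 30.5%. TATAAA (12.9% of all promoters), TTTATG (11.4%) and CCAAT (34%) are in neither window. The 2 promoters thus share none of the 6 motifs, and these letters are descriptions, not sites of binding.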

How the data were processed

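Total RNA of 16 rats, 4 per group, was hybridised to single-colour Agilent arrays whose design is on rn4. The authors deposited the spot tables of Agilent Feature Extraction 10.7.3.1, with the intensity of each spot as processed signal, background-subtracted and on a linear scale. Each array holds 62976 spots, of which 4259 are controls; the number of arrays limits the precision. From 71.1% to 80.3% of spots were well above background, 0 spots were saturated, and the 75th percentile of signal ran from 875.4 to 2194.0.

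Here log2 of the processed signal minus the log2 75th percentile of the array was taken for each spot, and spots of 1 probe were averaged after outlier spots were left out. Probes were tested with lmFit and eBayes of limma 3.58.1 (R 4.3.3) on all 16 arrays with 1 mean per group, with Benjamini-Hochberg adjustment over 30367 probes; a probe passed at an adjusted p of 0.05 or less. Probes were named by RefSeq transcript through a GRCr8 table used for names and gene order: 18006 probes matched 15159 symbols and 12361 stayed unnamed. A gene is given by its brightest probe. A fold marked "at least" sets the mean of the brighter group against the dimmer group's mean of, per array, the higher of the lowest signal of a spot well above background and its own.

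All members are named; of the pathway list, up to 10 rises and 10 falls with the largest changes among those that passed and were well above background on at least 4 arrays, for 3 comparisons; and for each member the 2 genes of highest correlation; some genes so picked are not used here by name, though the list's counts include them. Correlations between members used deviations from group means and 100000 permutations within groups, two-sided. The members and lists were chosen with earlier results of these data known. Slides held 2 rats of each group; an array's column on its slide went with its group, so the effects of column and of group cannot be told apart. Alternatives were quantile normalization, normexp (offset 50) on the median signal, a filter on dim probes, a common floor, outlier spots kept, slide or array row as a block, each slide alone, only the groups compared, no moderation, a minimum factor of 2, probes averaged, each rat left out and, chosen after seeing the data, scaling to the colonic epithelium genes. The fit was tested on simulated data.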

Additional observations from a re-analysis of the deposited data

Results flagged for a closer look

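Car4 in untreated Pirc rat 19 had a log2 level of 3.54, apart from the 4.28 to 4.42 of the other 3 rats of its group by more than Dixon's 95% limit. Of 36 groups checked (9 genes in 4 groups) 1 had a rat apart, and chance gives about 1 in 20. The same rat had the lowest Slc26a3 level of its group, 2.73. Without it, Car4 rose by 0.61 after DSS over both genotypes in place of 0.71, and still passed.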

How the results depend on the processing

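For DSS over both genotypes 3 of the 9 genes passed, but 4 (Cftr added) under quantile normalization, normexp, the filter on dim probes, the array row as a block or epithelium scaling, 2 (Slc26a3 lost) with the common floor or no moderation, 1 with slide 1 alone, and 0 with slide 2 alone or a minimum factor of 2; leaving out 1 rat gave 1 to 3. For DSS in Pirc rats 2 passed, 0 with slide 2 alone and 1 from only the groups compared (1 to 2 with a rat left out). For DSS in wildtype rats 0 passed, and 0 to 1 with a rat left out, the 1 being Car4 without rat 16. The Pirc effect over both treatments called 1, but 2 with the filter on dim probes, the array row as a block, averaged probes or epithelium scaling, and 0 with slide 1 or slide 2 alone (1 to 2 with a rat left out). After DSS it called 2, but 1 with the common floor, slide 1 alone, no moderation, a factor of 2 or only the groups compared, and 0 with slide 2 alone (1 to 3 with a rat left out). Epithelium scaling kept the count at 2 with other genes: Ano1 was lost and Slc12a2, higher in Pirc rats (0.74, limma adjusted p = 0.00992), was added. A slide alone holds fewer rats; for the other changes the cause was not tested.

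Direction changed for uncalled differences, and the slides differed. The Pirc effect on Slc26a3 in untreated rats was 0.40 on slide 1, −0.98 on slide 2 and −0.50 to 0.01 with a rat left out, the DSS effect over both genotypes on Slc4a4 0.14, −0.27 and −0.11 to 0.01, and on Car1 0.63, −0.86 and −0.53 to 0.16. The cause was not tested. Of the single-gene values, 862 kept direction and side of the threshold under the other settings, 119 no longer passed, 10 newly passed and 3 changed direction; with a rat left out the counts were 1168, 82, 8 and 6.

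Scaling moved the median of all probes: for DSS over both genotypes 0.06 became −0.06 under quantile normalization, for DSS in Pirc rats 0.04 became 0.18 under normexp, and epithelium scaling gave 0.18 for the Pirc effect and 0.21 for it after DSS. The share of called probes that were higher went, under quantile normalization, from 59.4% to 41.7% for DSS over both genotypes. It was 39.9% in place of 55.6% for Pirc rats and 58.2% in place of 76.6% for wildtype rats, where epithelium scaling gave 62.4%. Under that scaling the Pirc effect had 90.0% in place of 52.8%, and 87.7% in place of 52.0% after DSS. All 13 probes were well above background on every array.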
